A study of Mus musculus with 6 samples.

Results

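The 10 clock genes Per1, Per2, Per3, Cry1, Cry2, Nr1d1, Nr1d2, Dbp, Ciart and Clock were followed in mouse retinas of the oxygen-induced retinopathy model. They were chosen by gene symbol, and all 10 were found among the 28627 genes of the deposited table. Poly-A RNA was sequenced from 3 Emcn-/- and 3 Emcn+/+ retina samples of littermates at postnatal day 15, all from the retinopathy model, in which pups breathe high oxygen, lose retinal capillaries and then return to room air. Endomucin, the product of Emcn, is a glycoprotein on the surface of endothelial cells, and how the allele was made is not given in the labels used here. Nothing in the labels ties each sample to an animal of its own, so p-values measure only the spread between these samples. The hour of collection is not given in the labels used here.

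In the mammalian clock, the proteins CLOCK and BMAL1 (encoded by Clock and by the gene listed here as Arntl) bind E-boxes in DNA and switch on the Per and Cry genes, whose proteins accumulate and then block CLOCK and BMAL1. The same factors drive Nr1d1 and Nr1d2, whose products REV-ERB alpha and beta repress Arntl, and Dbp, whose product acts on D-boxes of further genes. The retina holds a clock of its own, which is set by light and is known to shape dopamine and melatonin signalling. Because mRNAs of this loop follow the time of day, their levels depend on when a tissue is taken.

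Promoter stretches are shown for the 4 genes in which letters bound by this loop were densest or of both kinds. Windows from 250 bases before to 50 bases after an annotated start were taken from RefSeq (GRCm38.p6). They matched 9 of the 10 genes in 12 windows, and Per2 had no entry. The letters searched, on either strand, were the E-box CACGTG, its variant CACGTT, the D-box TTATGTAA and its variant TTATGCAA, and the ROR element core TAGGTCA. No pair of these patterns overlapped in the stretches shown, in which capitals mark the matches, and each stretch runs 5′ to 3′ on the strand of its gene.
Ciart, chr3:95882255-95882356, minus strand: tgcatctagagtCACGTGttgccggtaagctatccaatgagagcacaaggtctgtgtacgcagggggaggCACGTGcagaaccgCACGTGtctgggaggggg
Per1, chr11:69098771-69098944, plus strand: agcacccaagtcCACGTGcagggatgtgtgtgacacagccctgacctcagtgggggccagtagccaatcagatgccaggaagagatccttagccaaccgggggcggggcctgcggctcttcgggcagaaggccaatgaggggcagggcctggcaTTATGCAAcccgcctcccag
Per3, chr4:151044804-151044882, minus strand: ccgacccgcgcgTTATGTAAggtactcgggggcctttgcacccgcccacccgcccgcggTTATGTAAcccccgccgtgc
Cry1, chr10:85185097-85185145, minus strand: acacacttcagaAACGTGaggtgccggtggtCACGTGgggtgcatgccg

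The Ciart stretch holds 3 E-boxes, which begin 116, 58 and 44 bases before the start. Per1 has an E-box 166 bases and the variant D-box 24 bases before the RefSeq start used. That start lies inside the Per1 gene span given below (69095217 to 69109960). Per3 has the D-box at 205 and again at 158 bases before its start. Cry1 has the E-box at 60 bases and the E-box variant, read on the opposite strand as AACGTG, at 79 bases. Among all 32851 RefSeq windows, 7.15% held the E-box, 4.68% its variant, 0.938% the D-box, 0.743% its variant and 2.61% the ROR core. The E-box stood in 3 of the 12 windows, its variant in 3, each D-box form in 1 and the ROR core in 0. These matches describe letters, and no match in a window says nothing about sites elsewhere.

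No difference between the genotypes was called for the 10 clock genes. None passed the test over all genes (limma, Benjamini-Hochberg adjustment, threshold 0.05), with fitted log2 fold changes of at most 0.19 in size and adjusted p of 0.615 to 0.979. For 6 of the 10, the 95% interval lay within 0.26 log2 of 0, and the intervals of the others reached further. This limit fell between the upper bound of Per1 (0.258, inside) and the lower bound of Clock (-0.264, just outside). The genotype ranges overlapped for 10 of 10, and the median log2 fold change was -0.04, against 0.01 over the 16681 genes tested. Only Emcn was called among all genes, or 0.00599% of those tested; an unadjusted p under 0.05 was reached by 0 of the 10 clock genes and by 8.14% of all genes. The genotype ranges did not overlap for 14.4% of all genes, 6.94% with Emcn-/- lower and 7.48% with Emcn-/- higher. On the recovered reads, edgeR also called 0 of the 10, against 0.00599% of all genes, and DESeq2 called 0 of the 8 to which it gave an adjusted p (all but Per2 and Ciart), against 1.12% of all genes with one.

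Clock encodes the histone acetyltransferase and DNA-binding partner of BMAL1 (GRCm38 chromosome 5, 76209868 to 76304792, minus strand). It had 2269.7, 2229 and 2089.5 normalised reads (read counts divided by 1 factor per library, not adjusted for gene length) in Emcn-/- retinas, against 2435, 2513 and 2221 in Emcn+/+ retinas. The lowest Emcn+/+ library lay between the Emcn-/- values. Its log2 fold change, taken after adding 1 to each value, was -0.12 ± 0.06 (SE; 95% interval -0.26 to 0.02, limma adjusted p = 0.657). In a bulk tissue such as this, fewer cells of a type and less RNA per cell cannot be told apart.

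The Per genes encode the PERIOD repressors, and Per1 and Per2 are also switched on directly by light in the brain clock. Per1 (chromosome 11, 69095217 to 69109960, plus strand) had 1528, 1430.4 and 1247 normalised reads in Emcn-/- retinas, against 1415, 1535 and 1198 in Emcn+/+ retinas. The lowest value of each genotype came from its replicate 3, and the log2 fold change was 0.02 ± 0.10 (SE; 95% interval -0.21 to 0.26).

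Per2 (chromosome 1, 91415982 to 91459324, minus strand) had 260.0, 327 and 244 normalised reads in Emcn-/- retinas, against 351, 336 and 209 in Emcn+/+ retinas. It had the widest span of the 10 genes, 1.68-fold between the highest and the lowest library, and both of those libraries were Emcn+/+. The lowest library held 191 Per2 reads, with a 95% exact Poisson interval of 180.0 to 240.4 normalised reads, and the interval of the highest was 338 to 416, so the span was wider than counting error, which is all these intervals cover. The log2 fold change of -0.08 had a 95% interval of -0.53 to 0.37, the widest of the set.

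Per3 (chromosome 4, 151003652 to 151044665, minus strand) had 868, 903 and 888 normalised reads in Emcn-/- retinas, against 1061, 1102 and 886 in Emcn+/+ retinas. It averaged 886 ± 18.03 in Emcn-/- and 1016 ± 115 in Emcn+/+ retinas (SD, n = 3 each), and Emcn+/+ replicate 3 stood at the Emcn-/- level. Its log2 fold change of -0.19 ± 0.09 was the largest in size among the 10 (95% interval -0.38 to 0.00, limma unadjusted p = 0.0522, adjusted p = 0.615). Without Emcn+/+ replicate 3 it was -0.29 (limma unadjusted p = 0.00104, adjusted p = 0.0662). With all 6 libraries the unadjusted p was under 0.05 with edgeR (0.0358), limma after TMM scaling (0.0468) and limma without the low-value filter (0.0461). Over the alternatives tried, the adjusted p of Per3 ranged from 0.0662 to 0.943.

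The cryptochromes are the strongest repressors of CLOCK and BMAL1, and Cry1 had the narrowest span of the 10 genes. Cry1 (chromosome 10, 85131700 to 85185064, minus strand) had 1099, 1003 and 1031 normalised reads in Emcn-/- retinas, against 996, 1050.1 and 1003 in Emcn+/+ retinas. The span over 6 libraries was 1.10-fold, and the log2 fold change was 0.04 (95% interval -0.10 to 0.18). Cry2 (chromosome 2, 92403646 to 92434043, minus strand) had 1887, 1878 and 1566 in Emcn-/- retinas, against 1837, 1812 and 1699 in Emcn+/+ retinas. Its exons overlap the little-read D930015M05Rik on the opposite strand. Its lowest library in each genotype was again replicate 3, and the log2 fold change was -0.01 (95% interval -0.19 to 0.17).

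Nr1d1 (chromosome 11, 98767932 to 98775333, minus strand) had 1952, 1929 and 1767 normalised reads in Emcn-/- retinas, against 1973, 1881 and 1654 in Emcn+/+ retinas. The log2 fold change of this nuclear receptor gene was 0.04 (95% interval -0.13 to 0.21). Its exons share 263 bases with Thra on the opposite strand, which averaged 4343 normalised reads, and since the use of strand in counting is unknown, reads of the pair cannot be told apart there. Nr1d2 (chromosome 14, 18204054 to 18239127, minus strand) had 2638, 2455 and 2322 in Emcn-/- retinas, against 2735, 2684 and 2329 in Emcn+/+ retinas, with a log2 fold change of -0.06 (95% interval -0.23 to 0.11).

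Dbp, a PAR bZIP activator whose mRNA swings widely over the day in many mouse tissues, had the narrowest span after Cry1. It had 1676, 1663 and 1532 normalised reads in Emcn-/- retinas, against 1641, 1636 and 1496 in Emcn+/+ retinas (chromosome 7, 45705088 to 45710203, plus strand). The 6 libraries lay within 1.12-fold of each other, the averages were 1624 ± 79.4 in Emcn-/- and 1591 ± 82.1 in Emcn+/+ retinas (SD, n = 3 each), and the 95% interval of the fold between them ran from 0.925 to 1.13. Dbp shares 539 exonic bases with Sphk2 on the opposite strand, which averaged 301 normalised reads.

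Ciart, whose product CHRONO represses CLOCK and BMAL1, had 169, 129.7 and 143 normalised reads in Emcn-/- retinas, against 156, 138 and 178 in Emcn+/+ retinas (chromosome 3, 95878503 to 95882251, minus strand). It was the only one of the 10 with its highest value in Emcn+/+ replicate 3, and the counting intervals of the highest library (163 to 220.4) and the lowest (107.9 to 154) did not meet. Its log2 fold change was -0.09 (95% interval -0.43 to 0.25).

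**Figure D1:**
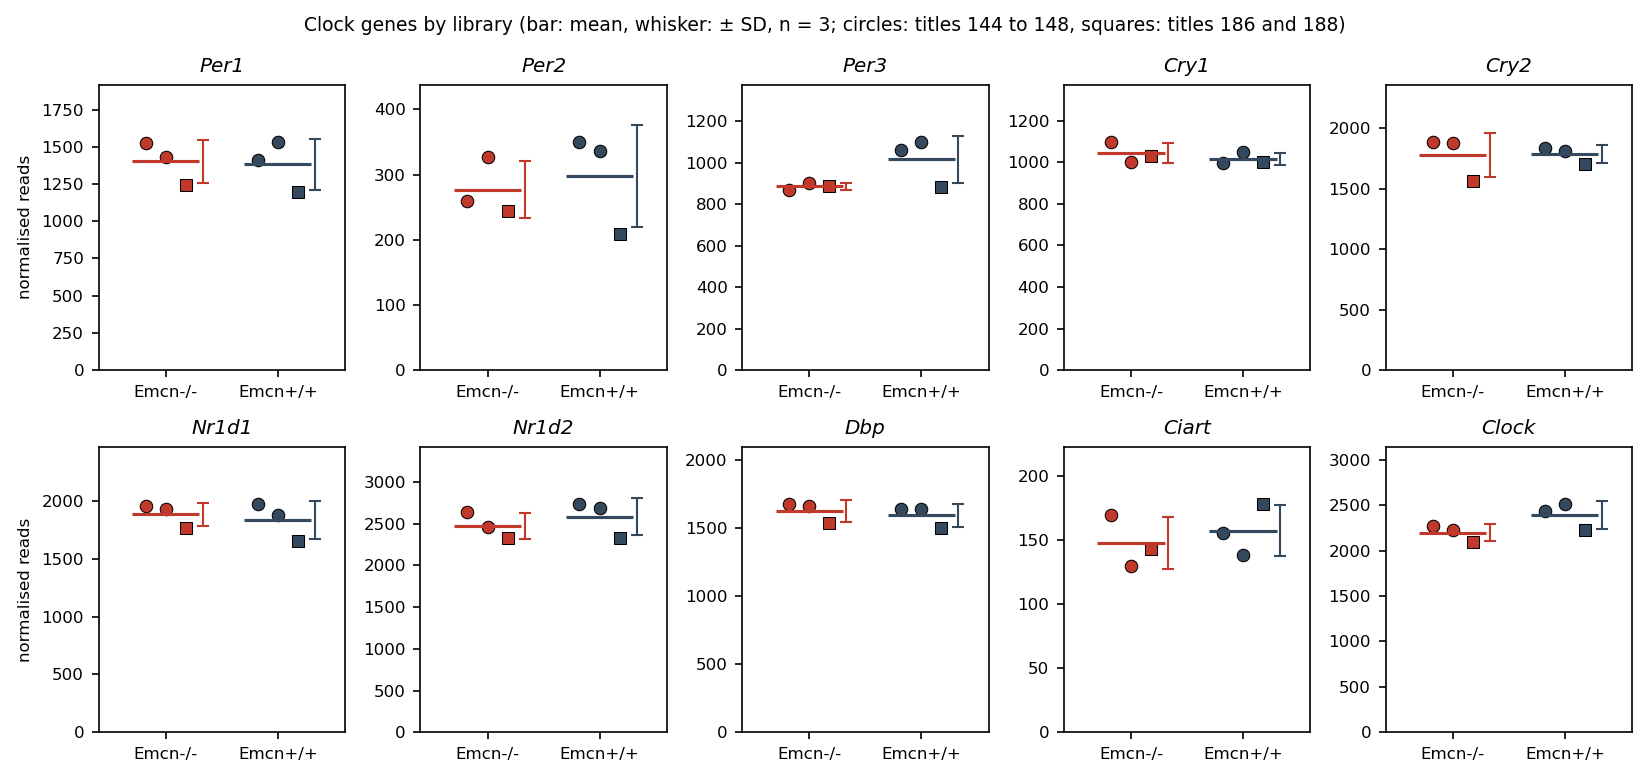
Normalised reads of the 10 clock genes in each library, with Emcn-/- left of Emcn+/+; bars are means and whiskers ± SD (n = 3 each). Circles are libraries titled 144 to 148 and squares those titled 186 and 188. Dbp stays between 1496 and 1676 in all 6 libraries, and the squares are the lowest of both genotypes for Per1, Per2, Cry2, Nr1d1, Nr1d2, Dbp and Clock.

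Scaled by exonic length, the output and REV-ERB genes stood highest. Nr1d1 had 604 normalised reads per kb over the 6 libraries, Dbp 537 and Nr1d2 467, and the ranges of these neighbours in the order overlapped. Cry1 followed at 308 and Cry2 at 282, then Per1 at 247, the non-member Arntl at 202 and Clock at 167, again with overlapping ranges between neighbours. Per3 (99.0) stood apart from Clock above it and from Ciart (67.4) below it, and the ranges of Ciart and Per2 (49.1) overlapped. Exonic length here is the union of annotated exons, so genes with long alternative ends are placed too low. Bases that Nr1d1 shares with Thra and Dbp with Sphk2 were not set apart.

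The other genes of the loop, taken from lists drawn up for this tissue, also passed in neither direction. Among 7 activators and related factors, 0 passed, and the median log2 fold change was 0.01. Arntl, the partner of Clock, had 1457, 1560.1 and 1535 normalised reads in Emcn-/- retinas, against 1342, 1536 and 1668 in Emcn+/+ retinas (log2 fold change 0.01, 95% interval -0.18 to 0.19). Rora (-0.07) and Rorb (-0.03), nuclear receptors that activate Arntl, and Npas2 (-0.19) and Arntl2 (0.33), paralogues of Clock and Arntl, had adjusted p of 0.740 to 0.909 with limma. Arntl2 averaged under 25 normalised reads in either genotype, at 24.0 ± 7.20 in Emcn-/- and 18.8 ± 4.52 in Emcn+/+ retinas (SD, n = 3 each). The D-box repressor gene Nfil3 (0.17, limma adjusted p = 0.794) had its highest Emcn+/+ value in replicate 3. Of the 4 PAR bZIP and DEC genes 0 passed: Tef had a log2 fold change of 0.05, Hlf -0.02, Bhlhe40 -0.02 and Bhlhe41 -0.00. Of the 21 loop genes in all, 19 had a log2 fold change under 0.25 in size.

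**Figure D2:**
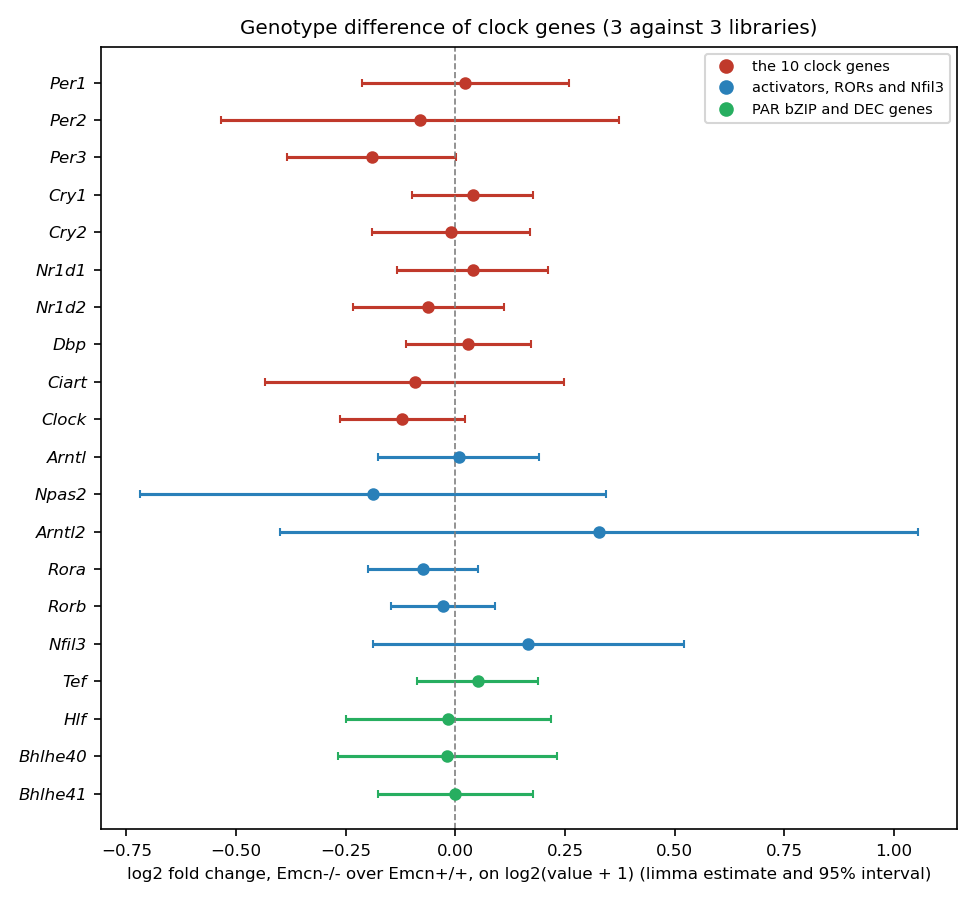
Log2 fold change of Emcn-/- over Emcn+/+ (limma estimate, points, with 95% interval, whiskers) for the 10 clock genes in red, activators, RORs and Nfil3 in blue and PAR bZIP and DEC genes in green, for the genes named in the text, 3 against 3 libraries. Every interval drawn includes 0, although that of Per3 reaches only 0.00, and the widest is that of Arntl2, from -0.40 to 1.05.

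Of 17 genes for enzymes and cofactors that act on clock proteins, 0 passed the test, and the median log2 fold change was -0.01. The genotypes did not overlap for 1 of them with Emcn-/- higher and for 1 with Emcn-/- lower. The corepressor gene Ncor1, a partner of REV-ERB proteins, had 4568, 4325 and 4361 normalised reads in Emcn-/- retinas, against 5070.4, 5201 and 4820.3 in Emcn+/+ retinas. These values did not overlap, as in 14.4% of all genes, but the log2 fold change of -0.19 ± 0.05 (SE) did not pass (limma adjusted p = 0.451). The deubiquitinase gene Usp2 had -0.16 and the kinase gene Gsk3b -0.10, with limma adjusted p of 0.616 and 0.701.

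Of the retinal rhythm, melatonin and dopamine list, 8 of 12 genes could be tested and 0 passed. Adcy1, an adenylyl cyclase gene under clock control in the mouse retina, had 7673, 7173 and 7424 normalised reads in Emcn-/- retinas, against 8496, 9617 and 8202 in Emcn+/+ retinas (log2 fold change -0.24 ± 0.07 SE, limma adjusted p = 0.473). Here, too, the genotypes did not overlap, as in 14.4% of all genes. The melanopsin gene Opn4 had 0.36 (limma adjusted p = 0.643) and the peptide gene Adcyap1 -0.31 (0.756). The Opn4 values did not overlap either, with Emcn-/- higher. Drd4, the dopamine receptor gene whose retinal mRNA is high in the dark, had 4477, 5954 and 5674 normalised reads in Emcn-/- retinas, against 4252, 4401 and 6509.7 in Emcn+/+ retinas (log2 fold change 0.10, 95% interval -0.27 to 0.48); it was named after its values were seen. Aanat, the timezyme of melatonin synthesis, had 13.6, 7.26 and 12.01 normalised reads in Emcn-/- retinas and 7.26, 7.41 and 7.64 in Emcn+/+ retinas, below the level tested; it, too, was named after its values were seen.

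Of the 10 clock genes, 8 were lower in the library of the later title number than the mean of the others, in both genotypes. The share over all tested genes was not computed for this count, and Cry1 enters it with only -0.03 (log2) in each genotype. The libraries carry title numbers 144 to 148 (2 of each genotype) or 186 and 188 (replicate 3 of Emcn-/- and of Emcn+/+), and the labels do not say what the numbers stand for. Libraries 186 and 188 were the lowest pair of the 6 for 7 of the 10 clock genes, Per1, Per2, Cry2, Nr1d1, Nr1d2, Dbp and Clock, and for 11.5% of all tested genes. The median difference of the 10 genes, libraries 186 and 188 minus the others, was -0.13 on the log2 scale in Emcn-/- and -0.19 in Emcn+/+ retinas, against 0.00 and 0.01 over all tested genes. For Per2 it was -0.26 in Emcn-/- and -0.71 in Emcn+/+ retinas, for Cry2 -0.27 in Emcn-/- and -0.10 in Emcn+/+ retinas, and for Dbp -0.12 in Emcn-/- and -0.13 in Emcn+/+ retinas. This pattern was noticed in the values and carries no test. Between genotypes, the median of the 10 genes was 0.01 among titles 144 to 148 and 0.02 between 186 and 188, and 6 of the 10 had the same sign in both. Per3 differed by -0.29 among titles 144 to 148 and by 0.00 between 186 and 188. Without Emcn+/+ replicate 3 (title 188), Per2 had -0.32 and Clock -0.17 (limma unadjusted p = 0.0360 and 0.0135), and neither passed after adjustment. With titles 144 to 148 alone, the limma unadjusted p was 0.00237 for Per3 and 0.0381 for Clock (adjusted p = 0.144 and 0.334). With the title-number series as a block it was 0.0227 for Per3 and 0.0247 for Clock (adjusted p = 0.322 and 0.333).

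Genes of light and activity response had the opposite order. Libraries 186 and 188 were the highest pair for 8 of the 11 genes of the light and activity list and for 12.8% of all genes, and they were the lowest pair for 0 of the 11. Egr1, an immediate early transcription factor gene, had 498, 866 and 1152 normalised reads in Emcn-/- retinas, against 353, 438 and 1123 in Emcn+/+ retinas (log2 fold change 0.50 ± 0.42 SE, limma adjusted p = 0.768). Fosb (-0.33), Arc (-0.42) and Btg2 (0.04) had limma adjusted p of 0.709 to 0.905, and none of the list passed between genotypes. Nfil3 and Bhlhe40 were highest in library 188, at 376 and 772 normalised reads. Red cell genes, a mark of blood in the tissue, moved in the same direction as the light list: their summed level was 2220 in library 186 and 2120 in library 188, against 542 to 884 in the other libraries. Of 5 endothelial markers, 4 had libraries 186 and 188 as their highest pair, and of 15 retinal markers 6 had them as their lowest pair, the direction of the clock genes. The Müller glia gene Glul was among these, with differences of -0.35 in Emcn-/- and -0.53 in Emcn+/+ retinas. The part of these cell types in the pattern was not tested.

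**Figure D3:**
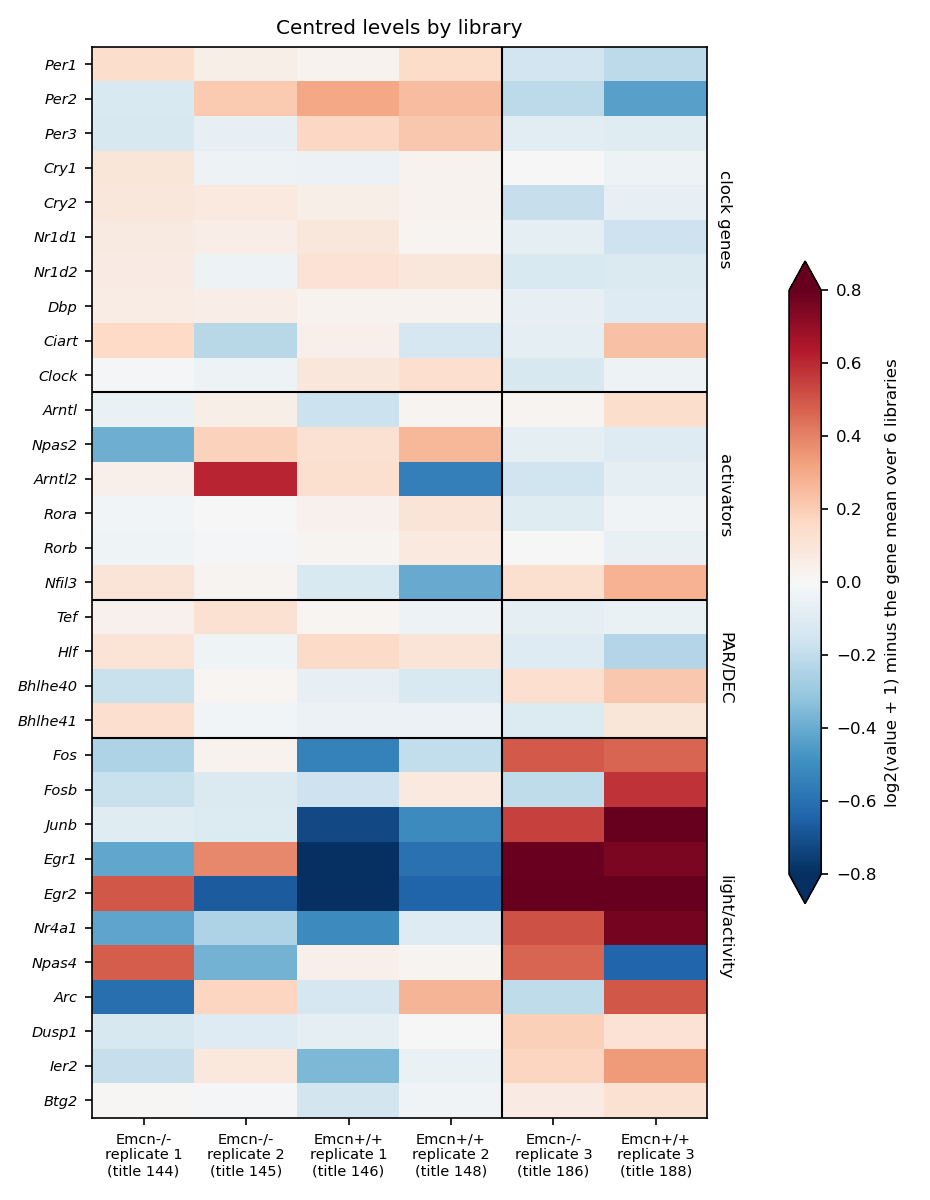
Log2(value + 1) minus the mean of each gene over the 6 libraries, as colour, for the 10 clock genes, activators, PAR bZIP and DEC genes and the light and activity list; columns are libraries, with titles 144 to 148 left of the black line and 186 and 188 right of it, Emcn-/- first on each side. The right columns are pale blue for 7 clock genes and red for Fos, Junb, Egr1, Egr2, Nr4a1, Dusp1, Ier2 and Btg2.

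Ratios taken inside a library do not depend on how libraries were scaled. The ratio of Dbp to Arntl reads was 1.15, 1.07 and 0.998 in Emcn-/- retinas, against 1.22, 1.07 and 0.897 in Emcn+/+ retinas. Per2 to Arntl was 0.178, 0.209 and 0.159 in Emcn-/- retinas, against 0.261, 0.218 and 0.125 in Emcn+/+ retinas. Both ratios were lowest in replicate 3 of each genotype, and the genotypes overlapped. Among all 45 pairs of the 10 genes, 6 ratios did not overlap between genotypes (13.3%). They included Dbp to Clock, at 0.738, 0.746 and 0.733 in Emcn-/- retinas, against 0.674, 0.651 and 0.674 in Emcn+/+ retinas, and Nr1d1 to Nr1d2, at 0.740, 0.786 and 0.761 in Emcn-/- retinas, against 0.721, 0.701 and 0.710 in Emcn+/+ retinas. The pairs share genes and carry no test, and the share over pairs of all genes was not computed. Among single genes, 14.4% did not overlap.

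Long genes were lower in Emcn-/- libraries as a whole, and the 2 clock genes with the most negative values were the longest of the 10. The median log2 fold change of all tested genes was 0.08 in the shortest of 5 equal groups by exonic length and -0.07 in the longest. Clock (13727 bp) and Per3 (9608 bp) belong to the longest group, and Dbp (2993 bp), Nr1d1 (3077 bp), Cry1 (3340 bp) and Ciart (2261 bp) to the second shortest. The non-members Ncor1 (12811 bp) and Adcy1 (12522 bp) also belong to the longest group. Ciart, the shortest of the 10, had the next most negative log2 fold change, at -0.09. With a smooth trend on exonic length removed in each library, an alternative chosen after seeing the data, Clock had -0.01 in place of -0.12 and Per3 -0.13 in place of -0.19, and the median of the 10 genes was 0.00. Of the 6 pair ratios, only Nr1d1 to Nr1d2 then still did not overlap, and the count over all 45 pairs was 1.

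**Figure D4:**
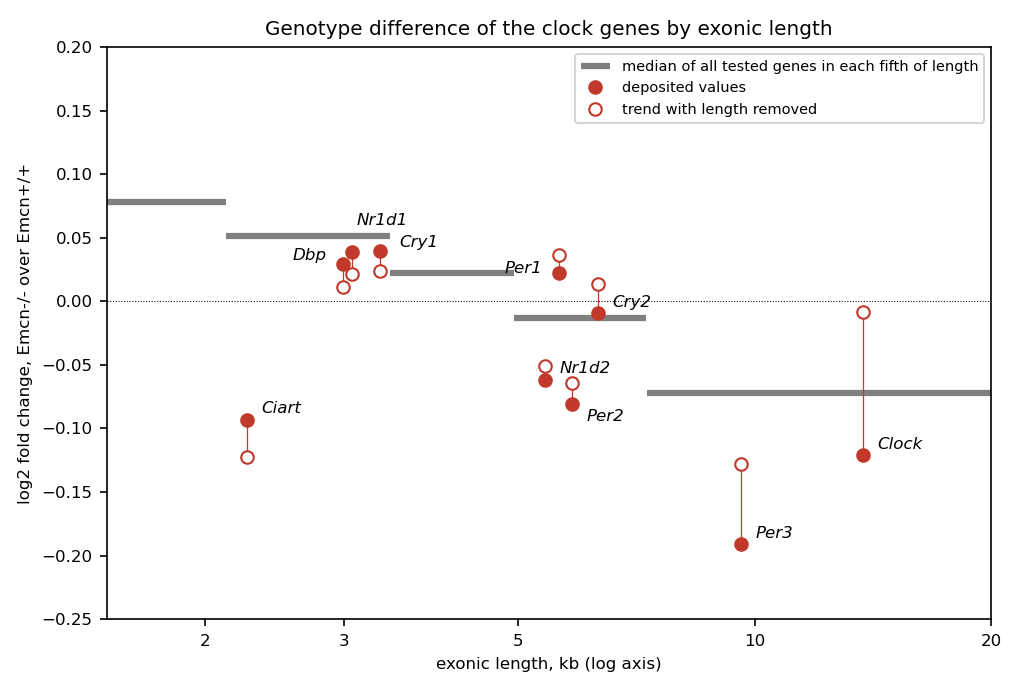
Log2 fold change of Emcn-/- over Emcn+/+ against exonic length (log axis, in kb) for the 10 clock genes, from the deposited values (filled) and with the trend on length removed (open); grey bars are the medians of all tested genes in each of 5 groups of length, cut at the ends of the axis. Clock is at -0.12 and then -0.01, and Per3 is lowest in both, at -0.19 and -0.13.

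The spread of the clock genes between libraries of the same genotype lay near the middle of tested genes averaging at least 100 normalised reads. The within-genotype SD on the log2 scale was 0.06 for Cry1, 0.07 for Dbp and 0.08 for Clock, and it reached 0.17 for Per1, 0.19 for Ciart and 0.33 for Per2. Among the 11621 tested genes with a mean of at least 100 normalised reads, the median percentile of the 10 genes was 54.1, with Cry1 at 15.3 and Per2 at 96.2. Among all tested genes their median percentile was 38.5. Genes of like mean were not compared separately. Over the 6 libraries, 9 of the 10 genes stayed within 1.5-fold from lowest to highest.

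**Figure D5:**
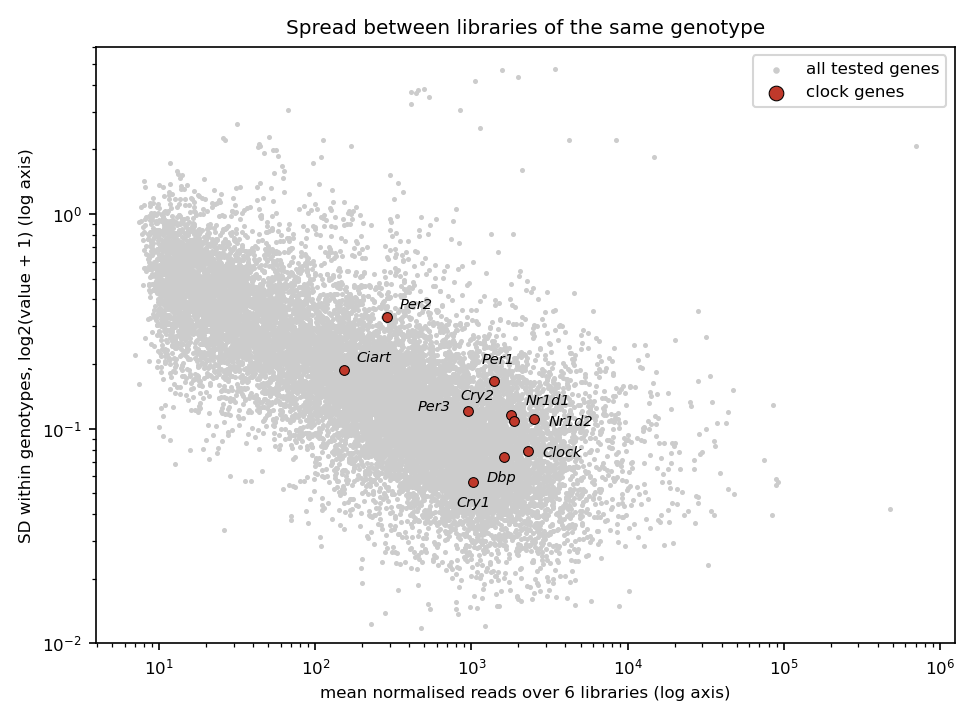
Within-genotype SD of log2(value + 1) against mean normalised reads (both log axes) for all 16681 tested genes in grey and the 10 clock genes in red. Cry1, Dbp and Clock have the lowest SD of the 10 and Per2, at 0.33, the highest.

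The 6 genes with the profile closest to that of Dbp came from none of the clock lists. By the root mean square difference of centred log2 values over the 6 libraries, the closest of 11119 genes were Tom1l2 (0.015), Pbx2 (0.016), Rgmb (0.017), Bmt2 (0.019), Scoc (0.019) and Acsl6 (0.021). Nr1d1 differed by 0.035, with 100 genes closer, Tef by 0.047, with 325 closer, and Per2 by 0.23, with 10069 closer.

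Genes that answer glucocorticoids, temperature or low oxygen, which can act on clock genes, did not pass either. Sgk1 and Mt1, from a list of 9 tested glucocorticoid genes, had 0.41 ± 0.13 and 0.42 ± 0.22 (SE; limma adjusted p = 0.499 and 0.658), and Tsc22d3 and Klf9 had 0.09 and -0.05. Among 8 temperature genes, the cold-induced Rbm3 had 0.33 ± 0.12 (limma adjusted p = 0.528), Cirbp 0.17, Hspa1a 0.13 and Hsp90aa1 0.07. Of 8 hypoxia genes, Slc2a1 had 0.24 ± 0.06, Bnip3 0.31 ± 0.11 and Ndrg1 0.14 ± 0.06 (SE; limma adjusted p = 0.400, 0.522 and 0.612). Without Emcn+/+ replicate 3, Slc2a1 (adjusted p = 0.0465), Bnip3 and Mt1 (0.0157 for both) passed with limma, as did 0.905% of all genes. With titles 144 to 148 alone, Bnip3 (0.0408) and Mt1 (0.0448) also passed.

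The libraries held 14865868 to 17087621 reads. Emcn averaged 2.54 ± 1.86 normalised reads in Emcn-/- and 91.5 ± 10.05 in Emcn+/+ retinas (SD, n = 3 each; log2 fold change -4.83, limma adjusted p = 0.0143); the call was lost without Emcn+/+ replicate 1 (0.0924), Emcn+/+ replicate 2 (0.191) or Emcn-/- replicate 1 (0.155). All 15 retinal markers were present, with a summed level of 768312 to 821127 normalised reads in Emcn-/- and 712232 to 733652 in Emcn+/+ retinas. Emcn+/+ replicate 1 carried lens RNA, with a summed level of 40408 over the lens markers against 32.8 to 177 elsewhere (Cryaa 20468). Emcn+/+ replicate 3 had 19265 normalised reads of Xist, against 0.924 to 4.63 in the other libraries, and was the only library with the Y-linked Ddx3y at 0, and its interferon genes summed to 5294 against 449 to 693 elsewhere. Pigment epithelium markers summed to 8833 to 12342 in Emcn-/- and 3744 to 7855 in Emcn+/+ retinas. The log2 fold change was above 0 for 10 of 10 tested (Ttr 0.92). Ciliary markers summed to 1219 to 1623 in Emcn-/- and 637 to 1072 in Emcn+/+ retinas, with 6 of 6 above 0 (Col9a2 0.60). No pigment epithelium, ciliary, endothelial (Kdr -0.26) or microglial (Csf1r -0.05) marker passed in either direction. Genotype ranges did not overlap for Kdr, with Emcn-/- lower, as in 6.94% of all genes. They also did not overlap for 4 pigment epithelium and 3 ciliary markers, with Emcn-/- higher, against 7.48% of all genes. The part of these genes in the clock gene values was not tested. Leaving out any single library called 0 of the 10 clock genes.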

How the data were processed

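Poly-A RNA of 3 Emcn-/- and 3 Emcn+/+ retina samples was profiled, from 1.3 µg of RNA per library, per the labels' protocols. The authors deposited scaled read signal by gene on GRCm38, per the submitters' processing notes; aligner, counter, annotation and scaling: not given in the sources used here. Dividing each library by its smallest unit gave whole reads for 100% of values (within 0.001 of a read), so read counts were recovered; the scaling matches DESeq2 size factors. Totals were 14865868 to 17087621 reads.

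The main test was limma 3.58.1 under R 4.3.3, with its variance trend, on values log2-transformed after adding 1, genotype as the only term, over 16681 genes kept by edgeR's expression filter (minimum count 10), with Benjamini-Hochberg adjustment over all of them. Fold changes on this scale understate low genes. edgeR 4.0.16 and DESeq2 1.42.0 on recovered reads, other scalings, pseudocounts and filters, a block for the title-number series, titles 144 to 148 alone and each library left out were alternatives. Removal of a length trend was added after seeing the data. edgeR called 1 gene and DESeq2 72, which did not include Emcn, as DESeq2 gave it no adjusted p (log2 fold change -5.14). Exonic lengths came from GENCODE M21, which held 27386 of 28627 IDs. The limma step was checked on simulated counts.

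Members and lists were chosen with earlier results of these data known. Named were Emcn, the 10 members, the loop lists, of each further list the 3 genes of smallest p and the most abundant, the most abundant of each marker list, and the 6 genes closest to Dbp; 2 of these genes are counted in their lists but not reported here by name.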

Additional observations from a re-analysis of the deposited data

How the results depend on the processing

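No paired analysis was possible because the replicate numbers follow sample order and pair nothing. With the title-number series as a block, 1 gene was called. None of the 10 clock genes and none of the other loop, regulator and retinal rhythm genes passed under any of the 17 alternatives (DESeq2 gave Per2 and Ciart no adjusted p), and the members' median stayed between -0.06 and 0.03. The number of all genes called was 1 with all libraries, 72 with DESeq2, which gave Emcn no adjusted p, and 42 with titles 144 to 148 alone. It was 0 with a minimum mean of 100 normalised reads, which removes Emcn. With a library left out it was 0 to 151 (151 without Emcn+/+ replicate 3). The cause of these differences in number was not tested. Of 170 log2 fold changes of the 10 genes under alternatives, 13 changed sign. With a library left out the ranges were -0.077 to 0.10 for Per1, -0.32 to 0.054 for Per2, -0.055 to 0.079 for Cry2, -0.034 to 0.093 for Nr1d1 and -0.014 to 0.071 for Dbp. They were -0.077 to 0.079 for Arntl, -0.063 to 0.0051 for Rorb, -0.14 to 0.057 for Hlf, -0.089 to 0.085 for Bhlhe40, -0.068 to 0.056 for Bhlhe41, -0.025 to 0.11 for Btg2, -0.092 to 0.0050 for Klf9, -3.42 to 2.40 for Cryaa, -0.20 to 0.98 for Hbb-bs and -0.21 to 0.071 for Csf1r. Among genes like Dbp they were -0.012 to 0.059 for Tom1l2, -0.031 to 0.055 for Pbx2, -0.010 to 0.077 for Rgmb, -0.0065 to 0.086 for Bmt2, -0.033 to 0.060 for Scoc and -0.023 to 0.055 for Acsl6. With the length trend removed the sign changed for Cry2 (0.014), Rora (0.031), Rorb (0.056), Hlf (0.011), Bhlhe41 (0.027) and Pbx2 (-0.0018). With titles 144 to 148 alone it changed for Cry2 (0.045), Ciart (0.016), Bhlhe40 (0.014), Bhlhe41 (0.10), Csf1r (0.074), Scoc (-0.00039) and Acsl6 (-0.0012). It also changed for Arntl with TMM scaling (-0.00026) and edgeR (-0.0053), and for Bhlhe41 with DESeq2 (0.0020) and upper-quartile scaling (0.0044). Among the 10 clock genes, Ciart and Per2 had the lowest depth, with 125 and 191 reads in their lowest libraries.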
